A study of Mus musculus with 34 samples.

Results

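The ADAM genes encode membrane proteins with a metalloprotease domain and a disintegrin domain. All 34 protein-coding mouse genes named Adam with a number and at most 1 further letter were taken, out of 21887 protein-coding genes, and the related Adamts genes were left out. From general knowledge of their expression, and not from these data, 21 were classed as testis-restricted, 4 as broadly expressed, 7 as somatic and 2 as epididymal. The classes were nevertheless chosen with earlier results of these data known. Each gene was described by the ATAC-seq intervals overlapping a window that reached 500 bp to each side of a gene end, at both ends. Below, a peak or call of a gene is one overlapping these windows, unless it is said to lie inside the gene. ATAC-seq uses the Tn5 transposase to cut and tag accessible DNA.

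Paired-end ATAC-seq was made from male germ cells of 3 backgrounds. The first were C57BL6 mice labelled GCN5-/-, in which floxed alleles of the histone acetyltransferase Gcn5 were removed by a Stra8-driven Cre (cKO). Stra8 is switched on around entry into meiosis, so the somatic cells of these testes are not targeted. The other backgrounds were SV129 mice and C57BL6 mice labelled GCN5+/+ (WT), both with intact Gcn5. Each background was sampled at 4 stages. MS is the meiotic fraction, RS are round spermatids, ES are elongating spermatids and Sp is mature sperm from the cauda epididymis. Per the labels, SV129 mice were adults of 8 to 12 weeks, cells of 11 mice were pooled for each collection, and pooled fractions had a purity of at least 85%. The same protocol text stands for WT and cKO, without a number of mice or an age of their own.

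On the head of mouse sperm, several ADAM proteins, among them members without an active protease site, form complexes needed for migration into the oviduct and for binding of the egg coat. Fertilin, made of ADAM1 and ADAM2 chains, and cyritestin (ADAM3) are the best known, and their assembly depends on germ-cell chaperones. The somatic family works differently, since ADAM10 and ADAM17 cut receptors and ligands such as Notch and tumour necrosis factor from the surface of most cells.

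For each stage and background the authors deposited 1 list of subnucleosome peaks, commonly read as open DNA free of a nucleosome, and 1 list of nucleosome calls of 150 bp. Intervals of both kinds can lie on the same bases. At Adam20 in WT round spermatids, for example, a nucleosome call lies wholly within a subnucleosome peak. A group is thus 1 list without replicates, no test between groups was possible, and every difference below is one between single lists. The groups were unequal in libraries. SV129 had 4 each at MS, RS and ES and 6 in sperm, while WT and cKO had 2 at each stage. Subnucleosome lists held 4075 to 56480 peaks at MS and RS, 473 to 787 at ES and 1127 to 10715 in sperm. The shortest of the MS and RS lists was that of cKO round spermatids, the longest that of WT round spermatids, and read depth is unknown. Among markers of other cells a fraction could hold, at most 1 of 9 Sertoli and Leydig genes (Amh, in the intact MS lists) and at most 1 of 9 blood and epididymal genes (Epcam or Spi1) had a subnucleosome peak in any list. Of all genes, 0.0457% to 47.5% had such a peak, depending on the list. Nucleosome calls lay at 0 to 8 of the 9 Sertoli and Leydig genes and at 0 to 3 of the 9 others. Depending on the list, 4.62% to 57.3% of all genes had a call. The 8 were in SV129 elongating spermatids, beside 39.2% of all genes. The part of other cells in the results below was not tested. Where an interval lies in a fraction of mixed cells, fewer cells with an open site and a less open site per cell cannot be told apart.

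The promoters of 18 ADAM genes were found in the RefSeq promoter table (GRCm38.p6, 250 bp before to 50 bp after the start), 11 of them testis-restricted. Part of the promoters of 4 testis genes and 2 broadly expressed genes is shown, from 130 bp before to 20 bp after the start. Adam20, Adam25, Adam26b and Adam34l had a peak in the WT list at RS and none at MS, and Adam10 and Adam17 had WT peaks at both stages. None of the 6 testis-restricted genes with a meiotic peak, described below, has a promoter in the table. For the testis genes, capitals mark 2 runs of letters that all 4 share. These runs were chosen after the sequences had been compared. The stretches are chr8:40793143-40793292 (plus strand), chr8:40752078-40752227 (plus strand), chr8:43528118-43528267 (minus strand) and chr8:43703405-43703554 (minus strand).
Adam20: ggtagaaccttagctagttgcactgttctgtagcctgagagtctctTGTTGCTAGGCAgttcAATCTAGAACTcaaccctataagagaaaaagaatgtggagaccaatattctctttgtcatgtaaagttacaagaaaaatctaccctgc
Adam25: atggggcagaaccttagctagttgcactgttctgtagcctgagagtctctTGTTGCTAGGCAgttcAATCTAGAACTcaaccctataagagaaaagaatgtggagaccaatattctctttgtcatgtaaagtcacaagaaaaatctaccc
Adam26b: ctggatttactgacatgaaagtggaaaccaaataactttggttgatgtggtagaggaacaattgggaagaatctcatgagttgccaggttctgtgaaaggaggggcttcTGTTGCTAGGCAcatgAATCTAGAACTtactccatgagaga
Adam34l: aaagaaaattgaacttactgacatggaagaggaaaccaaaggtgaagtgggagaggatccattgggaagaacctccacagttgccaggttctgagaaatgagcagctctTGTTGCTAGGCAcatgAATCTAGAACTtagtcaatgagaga
For Adam10, chr9:70678852-70679001 (plus strand), and Adam17, chr12:21373613-21373762 (minus strand), capitals mark each CG dinucleotide.
Adam10: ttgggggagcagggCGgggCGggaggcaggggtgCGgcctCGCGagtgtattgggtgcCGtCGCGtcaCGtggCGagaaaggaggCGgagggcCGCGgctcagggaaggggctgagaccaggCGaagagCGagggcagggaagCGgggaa
Adam17: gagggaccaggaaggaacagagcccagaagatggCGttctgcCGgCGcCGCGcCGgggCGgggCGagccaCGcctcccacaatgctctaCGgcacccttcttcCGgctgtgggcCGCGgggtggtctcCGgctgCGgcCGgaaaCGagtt

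The first run, TGTTGCTAGGCA, has 12 letters and was found on either strand in 7 of 17492 promoters (0.04%). Besides the 4 ADAM genes these were the promoters of 1700007K13Rik, Erich2 and H2-Ob. The second run, AATCTAGAACT, has 11 letters and was likewise in 7 promoters, the others being those of 1110059E24Rik, Lancl1 and Slfnl1. The first run begins 84 bp before the start in Adam20, 80 bp in Adam25 and 21 bp in both Adam26b and Adam34l. WT round spermatid peaks covered all letters of both runs in the 4 genes. SV129 peaks covered them in Adam20, Adam25 and Adam26b, while Adam34l had no SV129 peak at an end. The 4 genes were picked among those with a WT peak at RS and none at MS, so this coverage is no separate result. Adam1a, Adam6a, Adam6b, Adam21 and Adam29 also had such a WT peak, and their promoters hold neither run. All these genes are members of one family. Adam20 and Adam25 share an identical promoter run of 88 letters, Adam26b and Adam34l one of 29 and Adam6a and Adam6b one of 199. The sources used here do not say how reads that match several copies were placed, so the peaks of these copies are uncertain as separate measurements.

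CpG dinucleotides, which are dense in promoters of widely used genes, were few in the testis-restricted promoters of this table. All 11 held fewer than 5 CpG, with 0 in Adam6b, Adam21, Adam26b, Adam34 and Adam34l, 1 in Adam6a, Adam20, Adam25 and Adam29, 2 in Adam1b and 4 in Adam1a. Adam2, Adam3, Adam5, Adam18, Adam30 and Adam32, the testis-restricted genes with a meiotic peak, are not among the 11. Adam10 had 32, Adam17 had 30 and Adam15 had 25. Over all promoters the median was 13, and 29.2% held fewer than 5. Of the somatic genes, Adam23 had 31, Adam22 had 19, Adam8 had 6 and Adam19 had 5. The full cAMP response element TGACGTCA, bound by CREM in spermatids, was searched on both strands and stood in no ADAM promoter, against 2.34% of all promoters. Its first 5 letters, TGACG, which the full element contains, were in Adam10 alone, against 23.8% of all. The TATA box letters TATAAA were in Adam6a, Adam6b, Adam29 and Adam34l (13.3% of all promoters). GTTGCC, a core of the sites of RFX factors, was in Adam19, Adam26b and Adam34l (12.7% of all). Only these exact letters were searched, so other forms of such sites are not covered.

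**Figure D1:**
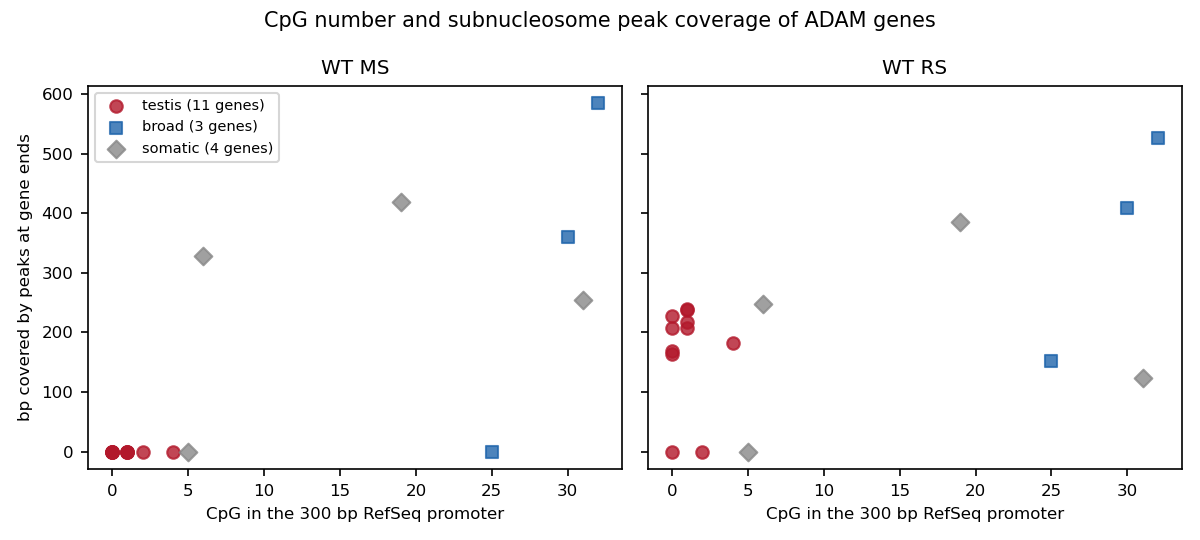
Number of CpG in the 300 bp RefSeq promoter (x axis) against the bp covered by subnucleosome peaks at the gene's ends (y axis) in the WT meiotic fraction (left) and WT round spermatids (right), 1 point per ADAM gene with a promoter in the table. The 11 testis-restricted genes in the table, which include none of those with a meiotic peak, lie at 0 bp at MS, and at RS those with a peak have 163 to 240 bp at 0 to 4 CpG, while Adam10 reaches 526 bp at 32 CpG.

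In the intact backgrounds most testis-restricted genes fell into 2 groups by the stage of the peaks at their ends. One had a peak in the meiotic fraction and none in round spermatids, and a larger one had the reverse pattern. A subnucleosome peak at RS and none at MS, in both SV129 and WT, was found for 10 of 21 testis-restricted genes, against 1.74% of all genes. Among genes whose promoter holds fewer than 5 CpG the share was 2.71%, and among those with 5 or more 1.36%. A peak at MS and none at RS in both lists was found for 5 of 21, against 3.45% of all genes. A peak at both stages was found for 1 of 21, Adam2, against 3 of 4 broadly expressed genes and 35.3% of all genes. Since many of these genes are copies lying side by side, they are not independent of each other.

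**Figure D2:**
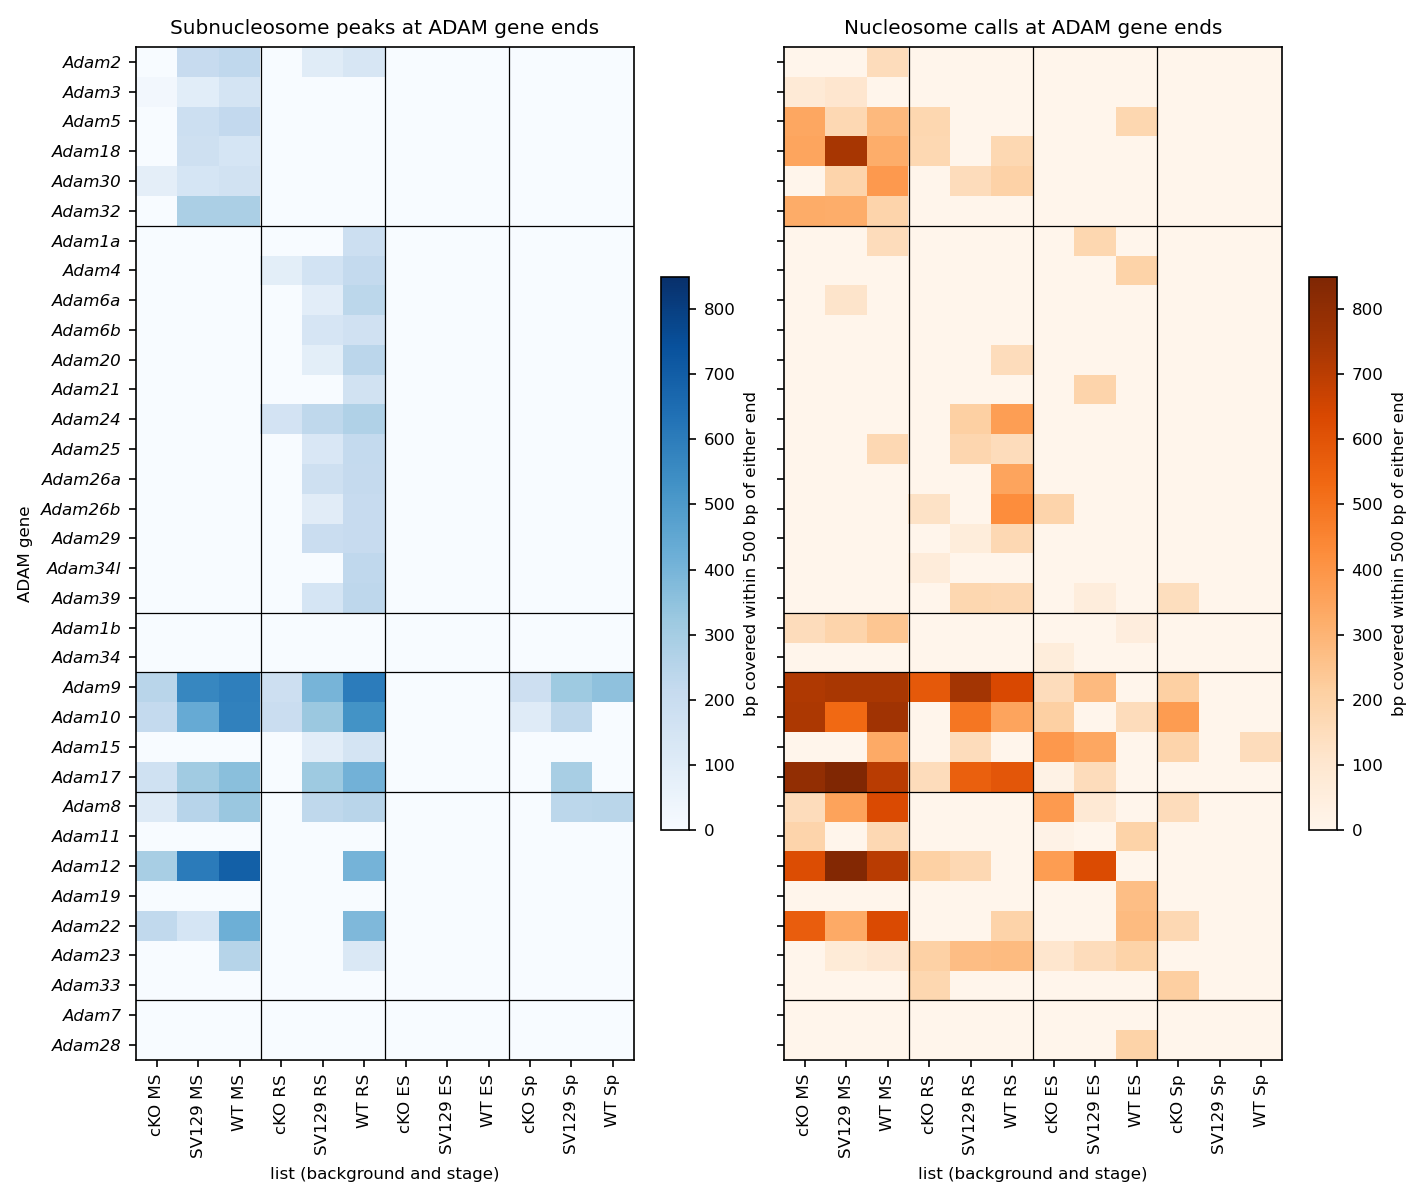
Base pairs covered by subnucleosome peaks (left) and nucleosome calls (right) within 500 bp of either end of each of the 34 ADAM genes (rows) in each list (columns, by stage and background). From the top, the blocks are testis-restricted genes with a meiotic peak, testis-restricted genes with a round spermatid peak only, testis-restricted genes with no peak, and broadly expressed, somatic and epididymal genes. No gene has a subnucleosome peak at an end at ES, and no testis-restricted gene has one there in sperm.

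Of the fertilin and cyritestin genes, Adam2 and Adam3 had peaks in the meiotic fraction. Adam2, the fertilin beta chain (chromosome 14, 66027322 to 66077851), had 0 bp covered in cKO, 206 bp in SV129 and 226 bp in WT at MS, and 0, 98 and 136 bp at RS. It was the only testis-restricted gene with peaks at an end at both stages in the intact lists, and each RS peak was narrower than the MS peak of its background. Adam3 (chromosome 8, 24677232 to 24726377) had 21 bp in cKO, 92 bp in SV129 and 150 bp in WT at MS and none at its ends later. Inside the gene, beyond the windows, WT round spermatids had 1 peak covering 184 bp. The meiotic peaks reach beyond the 500 bp limit, and their whole widths were 142, 291 and 310 bp, centred 550, 554 and 506 bp inside the upper gene end.

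Adam1a, the fertilin alpha chain needed inside the germ cell for assembly of the sperm complexes, had a peak at an end in WT round spermatids alone, of 183 bp. Its window also holds an end of Tmem116, so that peak may belong to either gene. Inside Adam1a, beyond the windows, round spermatids had 1 peak in SV129, covering 289 bp, and 1 in WT, covering 365 bp. Adam1b, the alpha chain found on sperm, had no subnucleosome peak in any list. Nucleosome calls lay at Adam1b in all 3 meiotic lists, with 150 bp in cKO, 190 bp in SV129 and 244 bp in WT.

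The other genes of the meiotic pattern were Adam5, Adam18, Adam32 and Adam30. At MS, peaks near Adam5, a sperm surface ADAM (chromosome 8, 24727093 to 24824369), covered 0 bp in cKO, 183 bp in SV129 and 222 bp in WT. Adam18 (chromosome 8, 24602246 to 24674755) had 0, 178 and 143 bp, in the same order, and Adam32 (chromosome 8, 24836143 to 24948918) had 0, 285 and 284 bp. Those 3 genes thus had a peak at an end in both intact lists and none there in cKO. Inside each gene, beyond the windows, cKO had 1 peak at MS, covering 149 bp in Adam5, 401 bp in Adam18 and 109 bp in Adam32. Peaks inside the genes covered 999, 0 and 646 bp in SV129 and 811, 430 and 382 bp in WT, in the same order of genes. Adam30, a small testis gene on chromosome 3 (98160634 to 98164169), had 83 bp in cKO, 143 bp in SV129 and 162 bp in WT, all at its lower end. With Adam3, the 5 genes covered 92 to 285 bp in SV129 (median 178 bp) and 143 to 284 bp in WT (median 162 bp).

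The round spermatid pattern held the testases, a rodent group of testis proteases, and several other testis genes. Adam24, testase 1, found on mature mouse sperm (chromosome 8, 40675077 to 40682199), had 154 bp in cKO, 230 bp in SV129 and 270 bp in WT at RS and none at any other stage. It had the widest peak of the 10 genes in all 3 backgrounds. Adam4, a sperm surface ADAM (chromosome 12, 81419443 to 81422039), had 85, 158 and 216 bp in cKO, SV129 and WT. Adam24 and Adam4 were the only testis-restricted genes with a peak at an end in the cKO round spermatid list.

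The other 8 genes had a peak in both intact lists and none in cKO. Of all genes with a WT peak at RS, 24% had one in cKO and 84.1% in SV129. Adam25, testase 2 (chromosome 8, 40752208 to 40756187), had 0 bp in cKO, 127 bp in SV129 and 217 bp in WT. Adam26a, testase 3 (chromosome 8, 43568273 to 43576707), had 0, 174 and 213 bp. Adam26b and Adam39, which lie beside Adam26a and Adam20, had 0, 93 and 208 bp and 0, 143 and 234 bp.

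Adam29, a testis gene that stands alone on chromosome 8 (55870912 to 55906964), had 0 bp in cKO, 193 bp in SV129 and 207 bp in WT. Adam20 (chromosome 8, 40793273 to 40797342) had 0, 85 and 240 bp. WT was the wider of the intact lists at all 10 genes. Adam6a and Adam6b, sperm ADAM genes at the edge of the immunoglobulin heavy chain locus on chromosome 12, had 0, 88 and 237 bp and 0, 142 and 169 bp. Over the 10 genes peaks covered 85 to 230 bp in SV129 (median 142 bp) and 169 to 270 bp in WT (median 216 bp).

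Besides Adam1a, the testis genes Adam21 (163 bp) and Adam34l (228 bp) had a round spermatid peak at an end in WT and none there in cKO or SV129. Adam34, testase 4, lies within the span of Adam34l and, like Adam1b, had no subnucleosome peak at its ends in any list. With Adam2, 14 of 21 testis-restricted genes had a peak at an end in WT round spermatids.

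The round spermatid peaks sat at 1 end of each gene. In the 10 genes of that pattern, peak centres lay between 56 bp inside and 100 bp outside the nearer gene end in SV129, and between 68 bp inside and 108 bp outside in WT. Where RefSeq gives the start, that end was the start. WT centres lay 32 bp before it in Adam20, 58 bp before it in Adam25, 52 bp before it in Adam26b, 39 bp before it in Adam29 and 108 bp before it in Adam6b, and 13 bp after it in Adam6a. Strand was not used here for the other genes. In the deposited scores, whose scale is not stated, the 10 WT peaks ranked from percentile 28.4 (Adam6b) to 96.9 (Adam4) of their list, with a median of 91.3. Adam4 and Adam24 (percentile 94.9), the genes also in the cKO list, had the highest ranks of the 10.

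**Figure D3:**
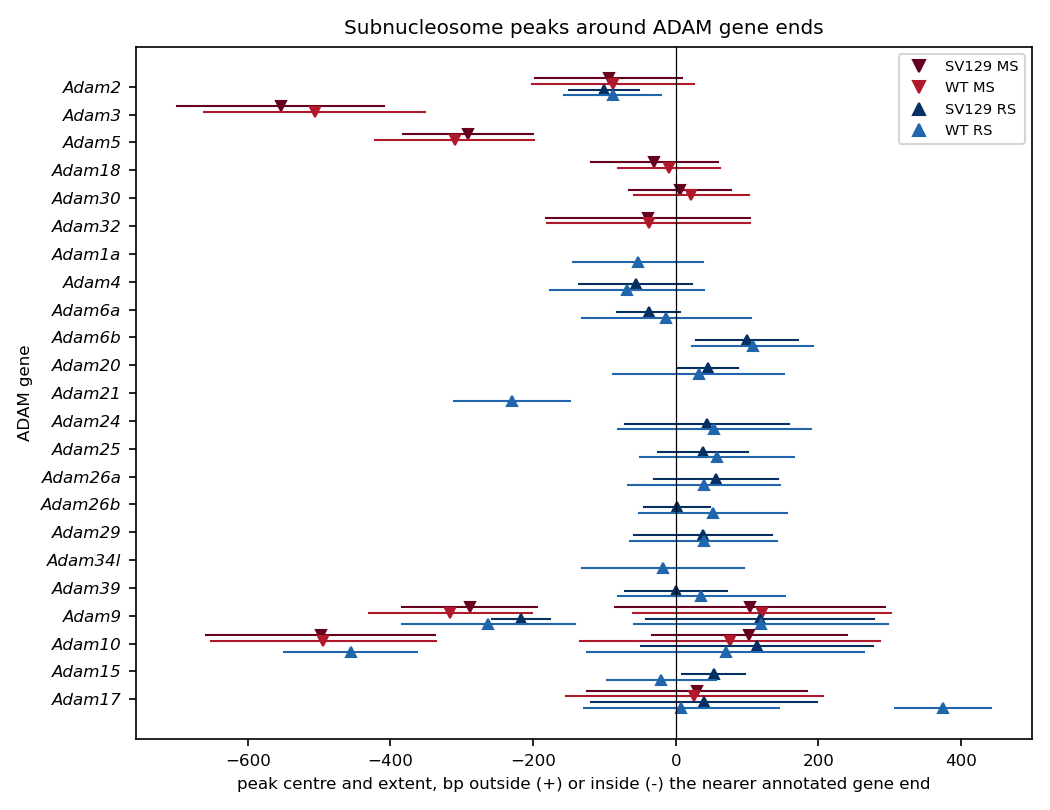
Centre (triangle) and extent (line) of each subnucleosome peak in the intact MS and RS lists, in bp outside (positive) or inside (negative) the nearer gene end, for testis-restricted genes with a peak and the 4 broadly expressed genes. Round spermatid peaks of the testis-restricted genes lie within 108 bp of the end except in Adam21, at 230 bp inside, and the meiotic peaks of Adam3 and Adam5 lie 291 to 554 bp inside it.

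Neighbouring genes shared a pattern. A stretch of 415 kb on chromosome 8 (24602246 to 25017040) holds Adam18, Adam3, Adam5, Adam32 and the broadly expressed Adam9 and no other protein-coding gene. Its 4 testis-restricted genes were all of the meiotic pattern. Another stretch of 152 kb (40675077 to 40826861) holds Adam24, Adam25, Adam20 and Adam39 alone, all 4 of the round spermatid pattern. In another, of 184 kb (43519864 to 43703424), Adam26b and Adam26a had that pattern in both intact lists, Adam34l in WT alone, and Adam34 had no peak. With 3 stretches this is a description, and the copies within a stretch share sequence.

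**Figure D4:**
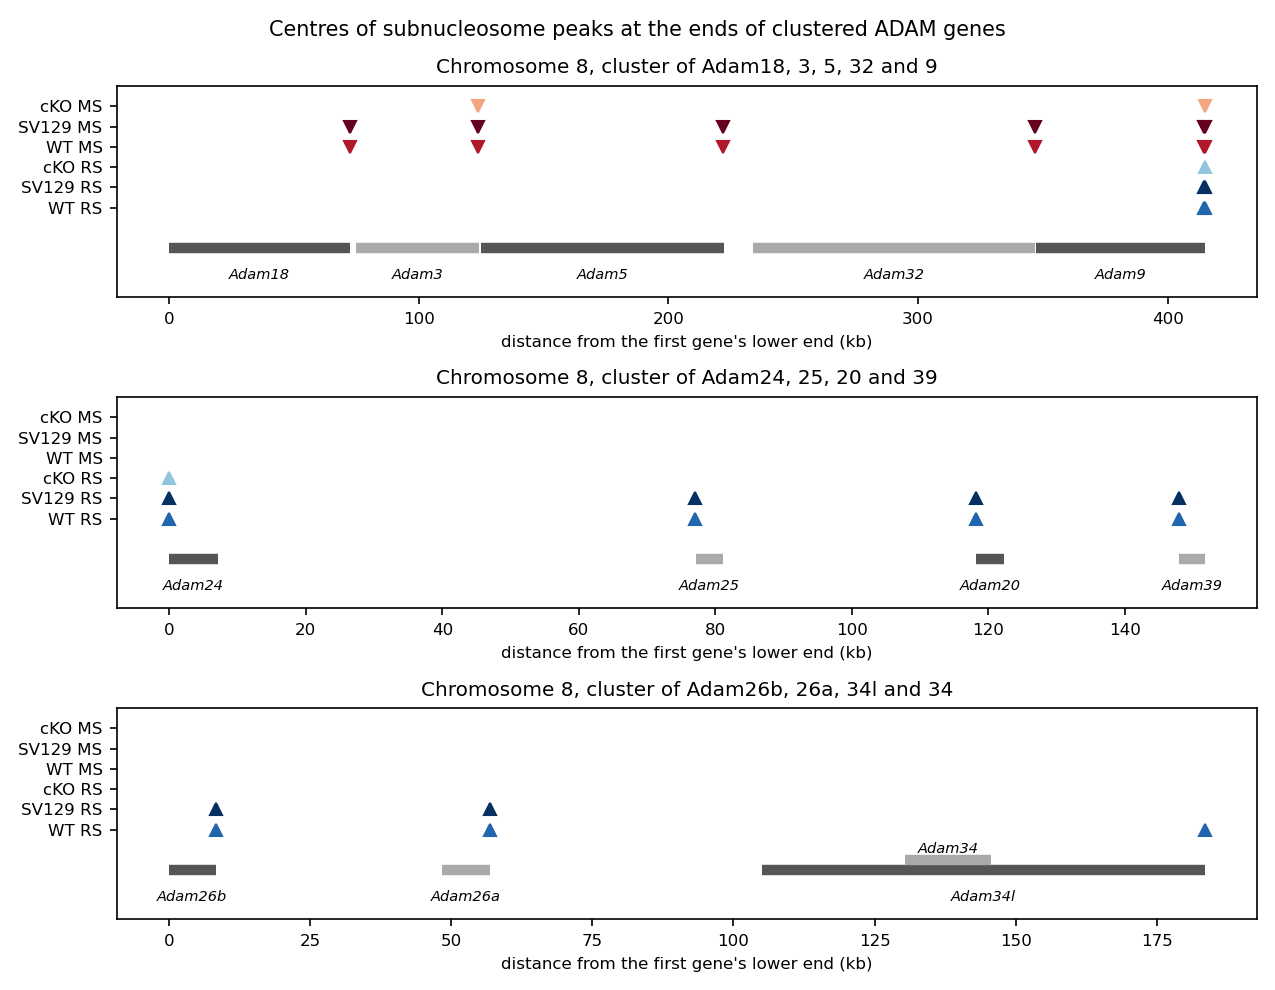
The 3 stretches of chromosome 8 with several ADAM genes (grey bars, distance in kb from the first gene), with the centres of subnucleosome peaks at gene ends in each MS (downward triangles) and RS (upward triangles) list. The top stretch has intact meiotic peaks at all 5 genes and round spermatid peaks at Adam9 only, whereas the lower 2 stretches have round spermatid peaks only.

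At MS and RS in the intact lists, peaks at Adam9, Adam10 and Adam17 covered at least 309 bp, more than at any testis-restricted gene. Near Adam10, the main sheddase of Notch (chromosome 9, 70678944 to 70780229, with no neighbouring gene end), peaks covered 216 bp in cKO, 436 bp in SV129 and 584 bp in WT at MS, and 193, 325 and 526 bp at RS. In sperm they covered 100 bp in cKO, 232 bp in SV129 and 0 bp in WT. Adam10 is the only broadly expressed member whose window holds no end of another gene.

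Adam17, which releases tumour necrosis factor (chromosome 12, 21323509 to 21373632), had 170 bp in cKO, 309 bp in SV129 and 360 bp in WT at MS, 0, 317 and 409 bp at RS, and 0, 292 and 0 bp in sperm. Adam9 (chromosome 8, 24949611 to 25017040) had 246, 567 and 590 bp at MS, 181, 400 and 599 bp at RS, and 182, 316 and 351 bp in sperm. It was the only ADAM gene with a sperm peak at an end in all 3 backgrounds. Adam15, metargidin, had peaks at RS alone, of 0, 89 and 152 bp. The windows of Adam17, Adam9 and Adam15 also hold ends of Iah1, of Tm2d2, and of Dcst1 and Dcst2.

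Of the 7 somatic genes, 4 had a peak at an end in at least 1 list. Adam12, meltrin alpha, had 290 bp in cKO, 601 bp in SV129 and 691 bp in WT at MS, and 0, 0 and 403 bp at RS. Adam22, a neuronal receptor of LGI1, had 224, 143 and 419 bp at MS and 0, 0 and 385 bp at RS. Adam23, related to it, had peaks at an end in WT alone, of 254 bp at MS and 123 bp at RS. Near Adam8, a leukocyte ADAM, peaks covered 108, 251 and 328 bp at MS, 0, 231 and 247 bp at RS, and 0, 237 and 243 bp in sperm. All but 1 of them lay at the lower gene end, 13340 to 13869 bp downstream of the RefSeq start and in a window shared with Spef1l. Adam11, Adam19 and Adam33 and the epididymal genes Adam7 and Adam28 had no subnucleosome peak at an end in any list.

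By class, the course over the stages differed between testis-restricted and broadly expressed genes. In SV129, subnucleosome peaks lay at 6 (MS), 11 (RS), 0 (ES) and 0 (Sp) of 21 testis-restricted genes, and at 3, 4, 0 and 3 of 4 broadly expressed genes. In WT the counts were 6, 14, 0 and 0 testis-restricted and 3, 4, 0 and 1 broadly expressed genes. In cKO they were 2, 2, 0 and 0, and 3, 2, 0 and 2. At their ends, the testis-restricted genes thus had more occupied members at RS than at MS in both intact backgrounds, equal numbers in cKO, and none in sperm. Over all 34 ADAM genes, the counts at MS were 8 in cKO, 12 in SV129 and 13 in WT, beside 33.1%, 45% and 47.5% of all genes. At RS they were 4, 16 and 22, beside 11.2%, 40.1% and 46.5%. No ADAM gene had a peak at an end at ES, where 0.0959%, 0.0868% and 0.0457% of all genes did. In sperm 2, 4 and 2 ADAM genes had one, beside 3.34%, 21.2% and 8.00%.

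**Figure D5:**
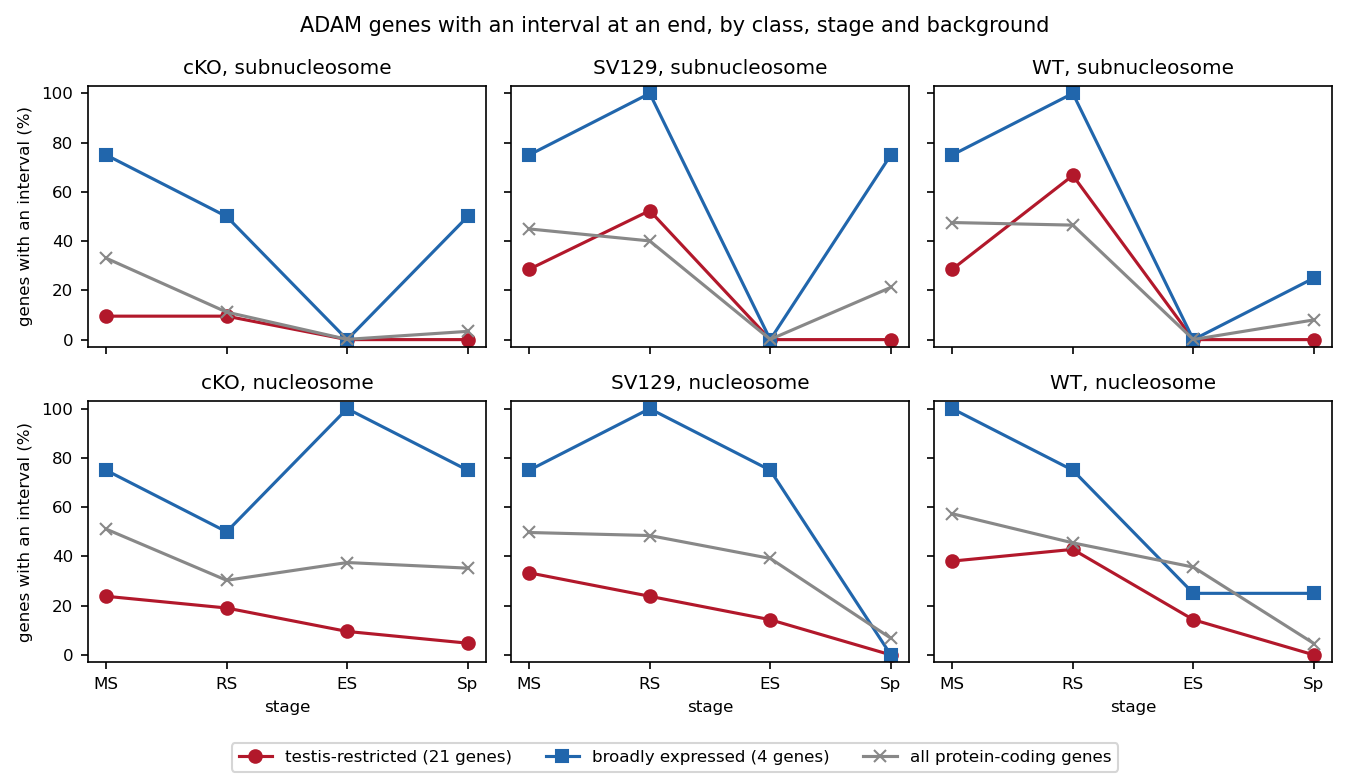
Percentage of testis-restricted (21) and broadly expressed (4) ADAM genes and of all protein-coding genes with a subnucleosome peak (upper row) or nucleosome call (lower row) at an end, by stage, in cKO, SV129 and WT. In both intact backgrounds the testis-restricted line passes above that of all genes at RS for subnucleosome peaks, with 11 and 14 of 21 genes, and lies below it in all 3 backgrounds for nucleosome calls.

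Set against WT gene by gene, cKO retained peaks at few testis-restricted genes. At MS a peak was listed in cKO for 2 of the 6 testis-restricted genes occupied in WT, Adam3 and Adam30, and for 3 of 3 broadly expressed genes, beside 69.2% of all genes occupied in WT. The SV129 list held 6 of the 6 and 3 of the 3, beside 90.4%. At RS cKO held 2 of 14 testis-restricted and 2 of 4 broadly expressed genes (Adam9 and Adam10), beside 24% of all genes. SV129 held 11 of the 14 and 4 of the 4, beside 84.1%. The share for the testis-restricted genes at RS in cKO is therefore not far from that of genes in general. The length of the cKO list moves with these counts, and its part in them was not tested. No ADAM gene had a peak at an end in cKO or SV129 at MS or RS without one in WT. Nearly all genes were alike in this. Of all genes with a cKO peak, 7199 of 7242 at MS and 2446 of 2446 at RS had one in WT. Of those with an SV129 peak, 9410 of 9839 at MS and 8559 of 8772 at RS had one in WT.

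At MS 4 testis-restricted genes, Adam2, Adam5, Adam18 and Adam32, had a peak at an end in both intact lists and none there in cKO. This combination was not counted over all genes. Of all genes occupied in WT at MS, 69.2% were listed in cKO and 90.4% in SV129. In cKO alone, a peak at RS and none at MS was found for Adam4 and Adam24, beside 0.567% of all genes, and one at MS and none at RS for 6 ADAM genes, beside 22.5%. Adam9 and Adam10 had both, beside 10.6%. In sperm, of the WT genes Adam8 and Adam9, cKO had Adam9 and SV129 had both, beside 19.8% and 80.3% of all genes occupied in WT. A sperm peak at an end without one in WT was listed for Adam10 in cKO, and for Adam10 and Adam17 in SV129. Over all genes this was common. Of 732 genes with a sperm peak in cKO, 347 also had one in WT, and of 4641 in SV129, 1407 did.

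Of the 5 genes of the meiotic pattern, 4 had a nucleosome call at MS in cKO, 5 in SV129 and 4 in WT. Calls near Adam18 covered 347 bp in cKO, 740 bp in SV129 and 320 bp in WT. They covered 325, 320 and 191 bp near Adam32, with all but 6 bp of the WT calls at the upper gene end, where the intact open sites lay. Those 2 genes and Adam5 had no subnucleosome peak at an end in cKO. Adam5 had calls of 150 bp in cKO, 170 bp in SV129 and 283 bp in WT at that end, and a further 190 bp at its lower end in cKO alone. Adam3 had 76 bp in cKO, 100 bp in SV129 and none in WT. Adam30, which kept a narrow cKO peak, had 0 bp in cKO, 190 bp in SV129 and 385 bp in WT. At RS these were 0, 150 and 200 bp, while Adam18 had 175, 0 and 175 bp.

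In round spermatids nucleosome calls lay at 9 testis-restricted genes in WT. Of these, cKO had calls at Adam18 and Adam26b and none at the other 7 (Adam20, Adam24, Adam25, Adam26a, Adam29, Adam30 and Adam39), beside 50.4% of all genes with a WT call that also had one in cKO. SV129 had calls at 5 and none at Adam18, Adam20, Adam26a and Adam26b, beside 86%. Adam24 had 0 bp of nucleosome calls in cKO, 210 bp in SV129 and 370 bp in WT, Adam25 had 0, 182 and 150 bp, and Adam39 had 0, 177 and 170 bp. Adam26a had 350 bp in WT alone. At Adam26b the calls lay at opposite gene ends, 123 bp at the lower end in cKO and 424 bp at the upper end in WT, with none in SV129. Of the 10 genes of the round spermatid pattern, 1 had a call at RS in cKO, 4 in SV129 and 7 in WT. The broadly expressed Adam9, Adam10 and Adam17 had 578, 0 and 150 bp in cKO, 750, 490 and 560 bp in SV129, against 635, 350 and 590 bp in WT at RS. At MS they had 723, 728 and 796 bp in cKO, 736, 530 and 846 bp in SV129, against 736, 758 and 701 bp in WT.

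Nucleosome calls lay at 12 ADAM genes in cKO, 14 in SV129 and 17 in WT at MS, beside 51.1%, 49.7% and 57.3% of all genes. At RS the counts were 9, 11 and 14, beside 30.3%, 48.5% and 45.5%. At ES they were 10, 9 and 9, beside 37.5%, 39.2% and 35.7%. In sperm they were 7, 0 and 1, beside 35.2%, 6.79% and 4.62%. Testis-restricted genes made up 5, 7 and 8 of these at MS, and 4, 5 and 9 at RS. They made up 2, 3 and 3 at ES, and 1, 0 and 0 in sperm. Their share was below that of all genes in every list.

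Of the ADAM genes with a call in WT, 11 of 17 at MS had one in cKO and 12 in SV129, beside 79.4% and 82.2% of all such genes. At RS these were 5 and 9 of 14, beside 50.4% and 86%. At ES 3 of 9 had one in cKO and 1 of 9 in SV129, beside 46.6% and 48.9%. Adam23 was the only ADAM gene with an ES call at an end in all 3 backgrounds (106, 150 and 198 bp). In sperm the 1 WT gene was Adam15, with 150 bp, and it had 190 bp in cKO and none in SV129, beside 77.1% and 41.3% of all genes. The cKO sperm list, 347951 calls long against 13615 in SV129 and 8628 in WT, also had calls at Adam8, Adam9, Adam10, Adam22, Adam33 and Adam39.

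Adam39 was the only testis-restricted gene among them, with 143 bp. Of the somatic genes, Adam12 had meiotic calls of 620 bp in cKO, 836 bp in SV129 and 701 bp in WT. Adam22 had 565, 330 and 630 bp, and Adam8 had 150, 355 and 630 bp. The testis-restricted genes Adam1a, Adam2, Adam3, Adam4, Adam6a, Adam20, Adam21 and Adam29 had 58 to 197 bp in 1 or 2 of the 8 intact lists and none in the others. Of the remaining genes, Adam6b and Adam7 had no call at an end in any list. Adam34 (58 bp at ES) and Adam34l (63 bp at RS) had calls at an end in cKO alone. Adam28 (197 bp) and Adam19 (267 bp) had such calls in WT at ES alone, and Adam33 had them in cKO alone, with 177 bp at RS and 215 bp in sperm.

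Inside the genes, away from their ends, Adam5 and Adam32 had subnucleosome peaks also at ES, when nearly all others were gone. At ES 3 peaks lay inside Adam5 in cKO, 6 in SV129 and 5 in WT, and 2, 4 and 4 inside Adam32. Any such peak was found in 0.457%, 0.864% and 0.480% of all genes. Of the 9 WT peaks inside these 2 genes at ES, peaks of cKO overlapped 2 (MS), 4 (RS), 6 (ES) and 6 (Sp). Peaks of SV129 overlapped 6, 9, 9 and 8 in that order of stages. Those of WT overlapped 5 at MS, 7 at RS and 1 in sperm. Myo3a, Kcnu1 and Duxf3 were among the genes that also held 3 or more peaks inside at ES in all 3 backgrounds. The cause was not tested.

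Of 12 listed genes that sperm ADAM proteins need for their maturation, 11 were found, and 8 had a subnucleosome peak at MS in each background, beside 33.1% (cKO), 45% (SV129) and 47.5% (WT) of all genes. They include Clgn and Calr3, chaperones of the germ cell endoplasmic reticulum, Tpst2, a tyrosine sulfotransferase, and Tex101 and Ly6k, surface proteins of germ cells. At RS 4 had one in cKO, 7 in SV129 and 9 in WT, beside 11.2%, 40.1% and 46.5%. Calr3, Pcsk4, Tex101 and Tpst2 had one in all 3. None had one at ES, and in sperm they numbered 0, 3 and 0, beside 3.34%, 21.2% and 8.00%. Of 15 regulators of the somatic proteases, such as the tetraspanins that guide ADAM10 and the inhibitor Timp3, 5, 9 and 9 had a peak at MS and 3, 9 and 10 at RS. None had one at ES, and 0, 3 and 1 had one in sperm.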

How the data were processed

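The data were paired-end ATAC-seq lists of mouse male germ cells, 24 BED lists from 34 libraries in 12 groups. The submitters' processing notes name STAR 2.5.2a, MACS2 2.1.0.20140616 and the build GRCm38 (mm10), with no role given. The sources used here do not say how fragments were classed, by which rule intervals were called, or how libraries were pooled. The authors deposited a score with each interval. It has no stated scale, is 0 throughout the SV129 subnucleosome lists, and in the WT and cKO lists was used only to rank peaks within a list. Peak names there carry the number of 1 library.

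Genes came from a RefSeq table (GRCm38.p6) of 21887 protein-coding genes without strand. An interval counted when it overlapped a window of 500 bp on either side of either gene end by at least 1 bp. Intervals and letters were counted in Python 3.11.15 with NumPy 2.4.6 and plotted with matplotlib 3.10.9, and the overlap counts were tested on simulated data. Depth is unknown, so no interval or floor is given. SV129 and cKO are both set beside the same WT lists.

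The members, classes and gene lists were chosen with earlier results of these data known. Values are given for every gene with a subnucleosome peak, every broadly expressed gene and the 10 testis-restricted genes with the widest nucleosome coverage in the intact lists. The alternatives were windows of 250 and 1000 bp, the interval's centre in the window, the upper 50% of peaks by score, nucleosome calls without the most common score, and leaving out genes with another gene end within 1000 bp. Protein sequences were not used here.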

Additional observations from a re-analysis of the deposited data

Results flagged for a closer look

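Between MS and RS, the number of ADAM genes with a subnucleosome peak at an end changed by -4 in cKO, by 4 in SV129 and by 9 in WT, so cKO moved opposite to both intact backgrounds. Of all genes 11.2% at RS and 33.1% at MS had such a peak in cKO, 40.1% and 45% in SV129, and 46.5% and 47.5% in WT, so the share over all genes fell in each. Between RS and ES, the number with a nucleosome call changed by 1 in cKO, by -2 in SV129 and by -5 in WT, again with cKO opposite to the others. Over all genes the shares moved the same ways, with 37.5% at ES and 30.3% at RS in cKO, 39.2% and 48.5% in SV129, and 35.7% and 45.5% in WT. The difference in genes with a nucleosome call, cKO minus WT, was -5 at RS and 1 at ES, and the shares of all genes likewise stood at 30.3% in cKO against 45.5% in WT at RS and at 37.5% against 35.7% at ES. Each of these is a count from single lists, and the difference between the backgrounds or stages was not tested. The cKO subnucleosome list had 16087 peaks at MS and 4075 at RS, that of SV129 33060 and 29243, and that of WT 35822 and 56480. List length thus moved in the direction of the ADAM count in cKO and WT and against it in SV129. The part of list length in the result was not tested.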

How the results depend on the processing

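The round spermatid pattern was found for 10 testis-restricted genes also with windows of 250 and 1000 bp, by the interval's centre and without members next to another gene end. The pattern of the meiotic fraction lost Adam3 with the window of 250 bp and by the interval's centre. The intact Adam3 peaks are centred 554 bp (SV129) and 506 bp (WT) inside the gene end. That pattern fell to 2 genes without members next to another gene end, since Adam3, Adam5 and Adam32 lie beside other ADAM genes. Leaving those members out removes genes by construction. It gave 4 (cKO), 6 (SV129) and 7 (WT) ADAM genes with a subnucleosome peak at MS, of which 1, 3 and 3 were testis-restricted and 1, 1 and 1 broadly expressed. At RS 1, 1 and 1 broadly expressed genes were left, and in sperm 1, 1 and 0 ADAM genes, all broadly expressed. For nucleosome calls it gave 6, 8 and 10 at MS, 6 (cKO) and 4 (SV129) at ES, and 4 (cKO) and 0 (WT) in sperm. In the upper 50% by score, ADAM genes with a subnucleosome peak were 3 in cKO at MS (0 testis-restricted), 13 in WT at RS, 0 in cKO sperm (0 broadly expressed) and 1 in WT sperm, and 1 testis-restricted gene was left in cKO at RS. The window of 250 bp and the centre rule each left 1 testis-restricted gene in cKO at MS, Adam30, and the window of 250 bp left 5 ADAM genes with a nucleosome call in cKO at ES. Without calls at the most common score these were 6 in cKO and 4 in SV129 at ES and 0 in WT sperm. The causes were not tested. The window of 1000 bp moved 0 of 36 subnucleosome counts and 5 of 36 nucleosome counts by more than 1.5 times.

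No paired analysis was possible because the authors deposited 1 list per group and no values per library, and leaving out a replicate was not run for the same reason. Counts this small move by over 1.5 times with 1 to 3 genes, the depth of the lists is unknown, and windows at 3' ends and at starts are not told apart for genes without a RefSeq promoter.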

Other observations

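Adam6a and Adam6b allow a comparison of near-identical promoters. Their identical run of 199 letters stands 101 bp apart relative to the annotated starts. Measured in the shared letters, the peak centres of the 2 genes in round spermatids differed by 37 bp in SV129 and by 20 bp in WT, although relative to the starts they lay on different sides in each list. Adam34l had 1 subnucleosome peak inside the gene in cKO round spermatids, 2 in SV129 and 3 in WT, of which 1 of the WT peaks overlapped Adam34.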
